A study of Mus musculus with 12 samples.

Results

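H2AK119ub, histone H2A carrying a single ubiquitin on a lysine of its C-terminal tail, was compared between mouse bone marrow cells that expressed ASXL1 (1-590) and cells that expressed its 25RA form, which the labels call condensation-defective. The comparison uses the CUT&RUN peak list of each condition, 2 of the 12 libraries of the series, and every peak on chromosomes 1 to 19, X and Y: 33863 peaks in 25RA and 32495 in 1-590. It also uses all 21738 protein-coding promoters, which reach 2 kb up and down from the canonical transcription start site (TSS) of GENCODE vM39, each placed in 1 of 4 classes by whether a peak touched it in both libraries, only in 25RA, only in 1-590, or in neither. The cells were c-Kit+ bone marrow cells, labelled as hematopoietic stem and progenitor cells (HSPCs) with genotype mock. In the 1-590 set, which shares 1 batch label, all 4 libraries came from cells co-transduced with a BAP1 retrovirus plus ASXL1 (1-590), ASXL1 (1-590) 25RA, ASXL1 (1-590) 10RA (called condensation-impaired in the labels) or empty vector. No library therefore shows cells without added BAP1, and the ASXL1 forms are expressed from a retrovirus on top of the cells' own Asxl1. The labels give no animal age, strain or number of animals. The series also holds a 1-1067 set of 4 H2AK119ub libraries, from cells with BAP1 plus ASXL1 (1-1067), its 34DN or 36EQ form, or empty vector, and 4 ChIP-seq libraries of BAP1 and ASXL1, with 1-590 and with 10RA. Each condition has 1 library, so no difference has a replicate check and no test was made; Wilson 95% intervals cover counting error only. Peak names inside the 25RA list carry another mutant code than the sample title, and its assignment to 25RA rests on the title.

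H2AK119ub is placed by Polycomb repressive complex PRC1, through its RING1 or RNF2 subunit, and marks promoters of silent developmental genes as well as many CpG-rich promoters. BAP1 is the deubiquitinase that removes it, and ASXL1 is the partner that activates BAP1. Truncated ASXL1 proteins occur in myeloid neoplasms, and in blood progenitors such truncations are known to increase BAP1 activity.

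The 2 libraries were close in depth. The genome-wide background recovered from the lists was 1.86 fragments per base in 25RA and 2.06 in 1-590, a ratio of 0.903, against 1.72 in 10RA and 0.908 in the vector library. Peaks were listed down to p of 0.001 whatever their q, and 94.1% of 25RA peaks and 96.0% of 1-590 peaks had q of 0.05 or less. A peak is called over its local surroundings, so a promoter without a listed peak is not a promoter without the mark. For the HSPC label, the progenitor markers Kit, Cd34, Flt3, Gata2 and Lmo2 had a promoter peak in both libraries, Meis1 and Runx1 only in 1-590, and Tal1 in neither; such a peak is no measure of expression and does not check the cell type.

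Sequences at the summits of a few unshared peaks follow, as examples that do not stand for their class. Each is 151 bases of GRCm39, plus strand, centred on the summit of a peak found in 1 of the 2 libraries, chosen by largest fold among windows free of exons, with CG dinucleotides in capitals. The H4c17 and Zmym2 promoter peaks were listed only in 25RA, at chr13:21996486-21996636 and chr14:57125451-57125601.
H4c17: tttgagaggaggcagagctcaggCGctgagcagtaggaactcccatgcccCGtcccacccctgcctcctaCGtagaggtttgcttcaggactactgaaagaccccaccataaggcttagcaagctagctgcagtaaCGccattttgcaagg
Zmym2: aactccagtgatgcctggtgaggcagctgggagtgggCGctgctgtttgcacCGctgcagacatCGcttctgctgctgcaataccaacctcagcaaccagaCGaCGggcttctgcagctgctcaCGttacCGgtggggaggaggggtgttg
The Atg2a and Il3ra promoter peaks were listed only in 1-590, at chr19:6291546-6291696 and chr14:8123647-8123797.
Atg2a: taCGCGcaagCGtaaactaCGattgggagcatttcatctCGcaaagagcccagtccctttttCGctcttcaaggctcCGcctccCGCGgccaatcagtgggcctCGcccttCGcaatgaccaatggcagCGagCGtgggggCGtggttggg
Il3ra: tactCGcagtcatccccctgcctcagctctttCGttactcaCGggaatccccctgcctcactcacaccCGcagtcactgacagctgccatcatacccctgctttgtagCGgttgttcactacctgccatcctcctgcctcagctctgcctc
The other two are distal peaks, the 25RA one between genes at chr6:114561921-114562071, 58.1 kb from the nearest TSS, that of Atg7, and the 1-590 one in an intron of Kdm1a at chr4:136297447-136297597; the latter is next in fold to a peak on chromosome 9 described with the distal sites.
Near Atg7: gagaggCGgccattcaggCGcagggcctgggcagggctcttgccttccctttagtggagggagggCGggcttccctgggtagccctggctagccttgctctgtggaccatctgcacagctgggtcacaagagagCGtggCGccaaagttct
Kdm1a intron: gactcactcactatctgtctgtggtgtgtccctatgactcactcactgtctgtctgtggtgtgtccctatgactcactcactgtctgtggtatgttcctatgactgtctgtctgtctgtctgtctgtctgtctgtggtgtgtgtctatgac
The Atg2a summit carried 14 CG dinucleotides, against 4 at H4c17, 7 at Zmym2, 5 at Il3ra and 5 near Atg7. The Kdm1a intron window holds none and is a run of short repeated units. The Zmym2 promoter (Zmym2 encodes a zinc finger protein of chromatin) has CpG-poor DNA over its 1001 bases at the TSS, with an observed over expected CpG of 0.285.

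H2AK119ub peaks at protein-coding promoters were more numerous in 1-590 than in 25RA. A promoter peak was found at 12002 genes in 1-590 (55.2% of 21738) and at 10401 in 25RA (47.8%). Both libraries had a peak at 9198 genes (42.3%), only 1-590 at 2804 (12.9%, 95% interval 12.5 to 13.4), only 25RA at 1203 (5.53%, 5.24 to 5.85), and neither at 8533 (39.3%). Genes with a peak only in 1-590 thus outnumbered those only in 25RA by 2.33 to 1, although the 25RA list holds more peaks. The ratio lay between 1.88 and 2.87 under the other promoter definitions, q of 0.05 or less, equal list lengths and depth scaling. It was 10.4 with -log10 q of at least 5. A peak that spans the start sites of 2 genes counts for each.

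The promoters of the 4 classes differed in CpG content, measured as observed over expected CpG in 1001 bases at the TSS. Its median was 0.744 for genes with a peak in both libraries, 0.683 for only 1-590, 0.476 for only 25RA and 0.207 for neither. At 0.6 or more, 78.4% of shared, 62.9% (61.1 to 64.7) of only 1-590 and 35.4% (32.8 to 38.2) of only 25RA promoters were CpG-rich, against 47.7% of all promoters. Among the 10368 CpG-rich promoters, 1765 (17.0%) had a peak only in 1-590 and 426 (4.11%) only in 25RA. Among the 11370 CpG-poor promoters the counts were nearer, 1039 (9.14%) and 777 (6.83%). The excess of 1-590 at promoters was thus mostly at CpG-rich DNA, and its direction was the same in both strata.

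**Figure D1:**
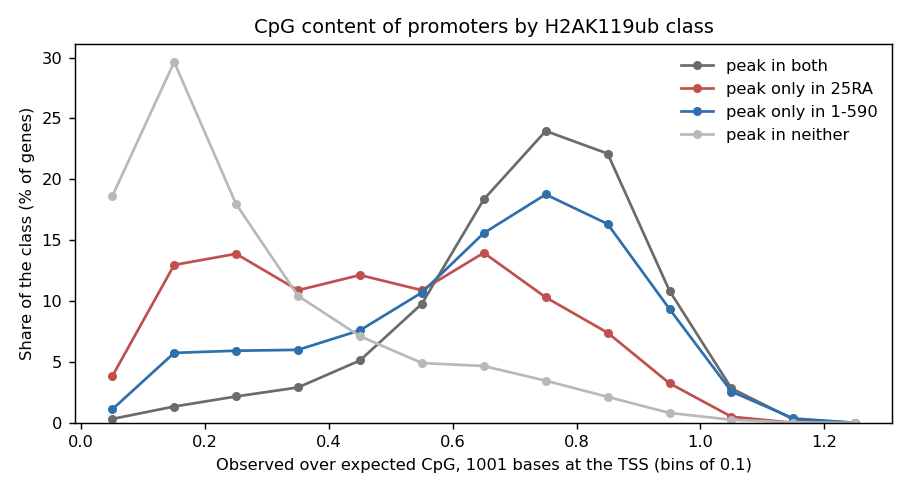
Share of each promoter class (vertical axis, % of genes) by observed over expected CpG in 1001 bases at the TSS (horizontal axis, bins of 0.1), for promoters with an H2AK119ub peak in both libraries, only in 25RA, only in 1-590 or in neither. The only-1-590 line follows the shared one (medians 0.683 and 0.744), while the only-25RA line is spread over low and high CpG (median 0.476).

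Peaks at only-25RA promoters were weak within their list and lay farther from the start site. Of them 7.90% had -log10 q of at least 5, against 42.3% of the 25RA peaks at shared promoters; in 1-590 these shares were 35.4% and 73.0%. Their median width was 282 bases and their median summit distance to the TSS 560 bases. The only-1-590 peaks had medians of 367.5 and 226.5 bases. Shared promoters had a median width of 416 bases in 25RA and 559 in 1-590, and summits at 195 and 170 bases from the TSS. These were 95 only-25RA and 992 only-1-590 genes; this q filter was chosen after seeing the data, and -log10 q depends on each library's own depth. From an only-25RA start site the nearest 1-590 summit lay at a median of 16007 bases, and within 10 kb for 35.2% of genes. From an only-1-590 start site the nearest 25RA summit lay at a median of 13213.5 bases, and within 10 kb for 39.5%. For the 8533 promoters with a peak in neither library, a 1-590 summit lay within 10 kb for 1704 and a 25RA summit for 1772 (20.8%).

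Genes of growth and protein synthesis were listed in 1-590 alone far more often than in 25RA alone. Of 84 cytosolic ribosomal protein genes, 51 had a promoter peak in both libraries, 24 (28.6%) only in 1-590 and 0 only in 25RA, beside 12.9% and 5.53% of all genes. The 24 included Rps20 (1-590 fold 7.23), Rps6 (5.50), Rps23 (5.18) and Rplp0 (5.02). Of 78 mitochondrial ribosomal protein genes, 45 had a peak in both, 23 (29.5%) only in 1-590, among them Mrpl45 with a fold of 6.31, and 3 only in 25RA (Mrpl1, Mrps17 and Mrps22). Fold here is the authors' caller's enrichment at the summit, fragment pileup plus 1 over local background plus 1. It ranks peaks within a list.

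All 25 MYC and growth genes had a promoter peak in 1-590, and 18 of them also in 25RA. The 7 listed only in 1-590 were the MYC family member Mycn, the cell cycle kinase Cdk4, the D-type cyclins Ccnd2 and Ccnd3, and Mcm2, Mcm3 and Mcm5 of the replicative helicase. Of 39 proteasome subunit genes, 24 were shared, 10 (25.6%) only in 1-590, with Psmb5 highest at 6.36, and 3 only in 25RA (Psmd14, Psmb4, Psmd10). Of 28 Mediator genes the counts were 18, 7 and 1, and of 52 DEAD and DEAH box helicase genes 37, 9 and 1. These housekeeping lists are mostly CpG-rich promoters (96.4% of the cytosolic ribosomal and 84.6% of the proteasome genes), and among all CpG-rich promoters 17.0% were only in 1-590 and 4.11% only in 25RA. Respiratory complex I genes, 83.8% of them CpG-rich, were mostly shared, 30 of 37, with 4 only in 1-590 and 1 only in 25RA.

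**Figure D2:**
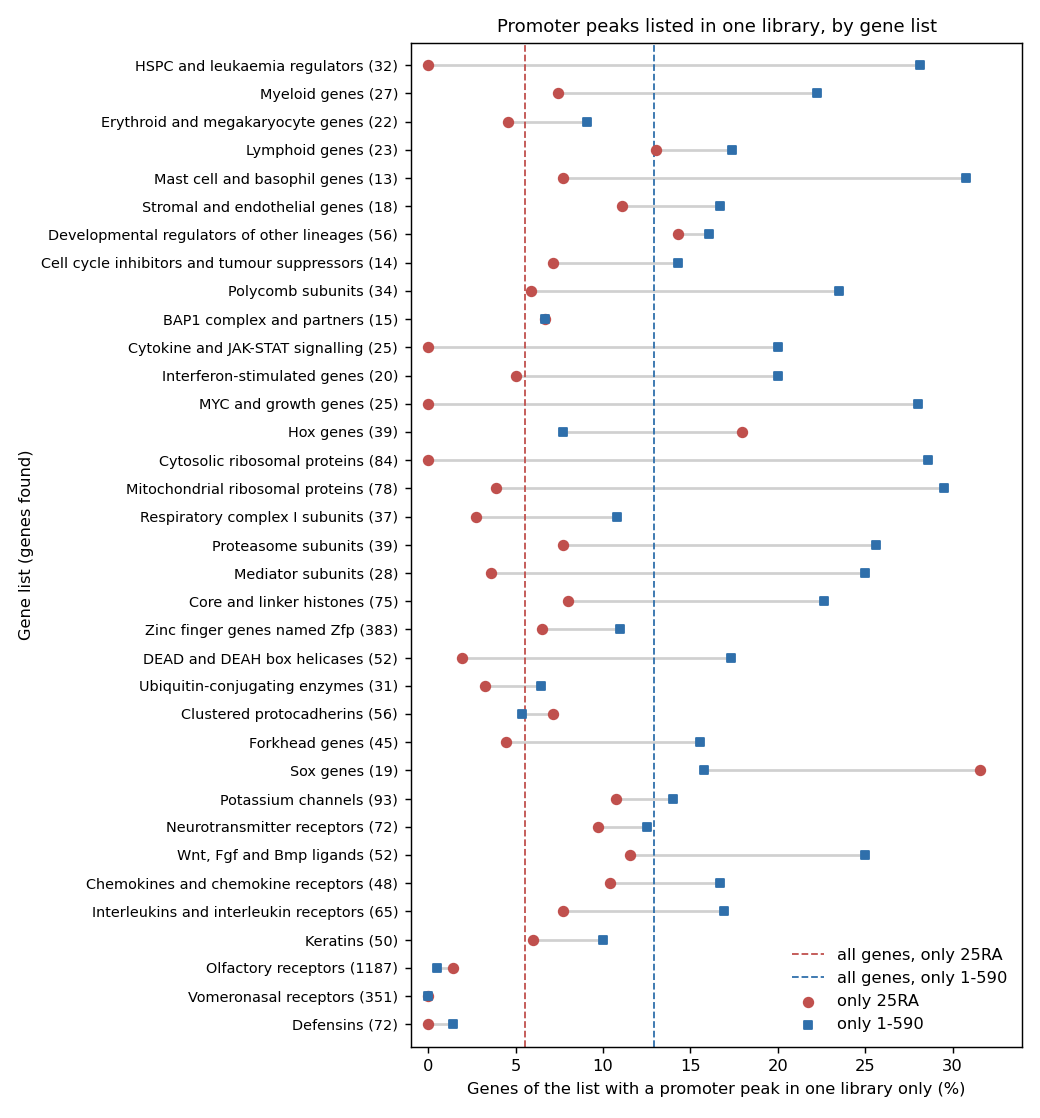
Share of the genes of each of 35 lists (vertical axis, genes found in parentheses) with a promoter H2AK119ub peak only in 25RA (circles) or only in 1-590 (squares), in %; dashed lines mark the same shares over all 21738 genes, 5.53% and 12.9%. Ribosomal protein, HSPC and MYC and growth genes lie far to the right in 1-590, with 0 to 3.85% only in 25RA, while Hox and Sox genes have the larger share in 25RA.

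Most lists of tissue-specific and developmental genes were more even than all promoters, of which 5.53% were only in 25RA and 12.9% only in 1-590. Over CpG-rich promoters these shares were 4.11% and 17.0%, and over CpG-poor ones 6.83% and 9.14%. The SRY-related Sox genes had 7 shared promoters, 6 only in 25RA (Sox5, Sox9, Sox11, Sox13, Sox14 and Sox15) and 3 only in 1-590 (Sox1, Sox17 and Sox21), of 19. Of 56 developmental regulators of other lineages, 8 (14.3%) had a peak only in 25RA, among them the muscle regulator Myod1 (fold 2.75) and the heart regulators Hand1 (3.29) and Tbx5 (2.58). In the same list 9 (16.1%) had a peak only in 1-590, among them Pax6, Isl1 and Twist1. Potassium channels gave 10 only in 25RA and 13 only in 1-590 of 93, and neurotransmitter receptors 7 and 9 of 72. Both lists are mostly CpG-poor, and their split was near that of all CpG-poor promoters. Wnt, Fgf and Bmp ligands gave 6 and 13 of 52, a split near that of all promoters. Olfactory receptor promoters, which are CpG-poor, had few peaks in either library: 17 of 1187 only in 25RA (1.43%), 6 only in 1-590 (0.505%) and 6 in both. Vomeronasal receptors had 3 shared promoters of 351 and none in 1 library only.

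Over all promoters 42.3% had a peak in both libraries, 12.9% only in 1-590 and 5.53% only in 25RA, and the counts of blood genes stand beside these shares. The HSPC and leukaemia regulators are mostly CpG-rich (68.8%). Over all CpG-rich promoters 69.5% were shared, 17.0% only in 1-590 and 4.11% only in 25RA. Of 32 HSPC and leukaemia regulators, 19 had a peak in both libraries, 9 (28.1%) only in 1-590 and 0 only in 25RA. The 9 were the transcription factors Runx1, Runx3, Fli1, Erg, Meis1, Mecom, Myb and Ikzf2 and the DNA demethylase Tet2. The folds in 1-590 ran from 2.37 at Mecom to 4.42 at Tet2, and Runx1, Erg and Meis1 had no promoter peak in 10RA or vector either. Across the gene, Meis1 held 9 peaks in 25RA, 5 in 1-590, 6 in 10RA and 8 in vector. Runx1 held 9, 11, 10 and 5. At Kit, the stem cell factor receptor, all 4 libraries of the set had a peak, with fold 3.96 in 25RA, 4.09 in 1-590, 4.34 in 10RA and 5.01 in vector. The Kit peak was 507 bases wide in 25RA, 1149 in 1-590, 493 in 10RA and 549 in vector. Of 25 cytokine and JAK-STAT genes, 15 were shared and 5 only in 1-590: the kinase Jak3, Stat4, the feedback inhibitors Socs3 and Cish, and the cytokine Il7. None was only in 25RA.

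The next lists are mostly CpG-poor, and over all CpG-poor promoters 17.5% were shared, 9.14% only in 1-590 and 6.83% only in 25RA. Myeloid genes gave 6 shared, 6 only in 1-590 (Cebpe, Irf8, Itgax, Lyz1, Mmp9 and Fcgr3) and 2 only in 25RA (the granule protease Prtn3 and lactoferrin, Ltf), of 27. Lymphoid genes gave 5 shared, 4 only in 1-590 (Tcf7, Gata3, Bcl11b and Tbx21) and 3 only in 25RA, of 23. Among the 3 were Cd3e and Cd3g, CD3 subunits of the T cell receptor complex. Erythroid and megakaryocyte genes gave 7, 2 and 1 of 22, and mast cell and basophil genes 3, 4 and 1 of 13. Stromal and endothelial genes gave 6, 3 and 2 of 18. The lymphoid, erythroid and stromal splits differ by 1 gene each, and no lean to either library is drawn from them. Interferon-stimulated genes gave 6 shared, 4 only in 1-590 (Ifit1, Ifih1, Mx1 and Irf9) and 1 only in 25RA (Rigi), of 20.

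The genes of the H2AK119ub machinery are mostly CpG-rich, and over all CpG-rich promoters 69.5% were shared, 17.0% only in 1-590 and 4.11% only in 25RA. Bap1 had fold 5.12 in 25RA, 4.71 in 1-590, 4.11 in 10RA and 5.41 in vector. Asxl1 had 3.89 in 25RA and 4.14 in 1-590, with no promoter peak listed in 10RA or vector. Asxl2 had 3.30 in 25RA, 6.24 in 1-590, 5.14 in 10RA and 4.20 in vector, with widths of 989 and 1183 bases in 25RA and 1-590. The promoter of the cell cycle inhibitor gene Cdkn2a had 2.45 in 25RA, 3.36 in 1-590 and 2.88 in 10RA, and no peak in vector. Across the gene, Cdkn2a held 6 peaks in 25RA, 5 in 1-590, 5 in 10RA and 3 in vector. In the list of the BAP1 complex and its partners, 12 of 15 were shared, Mysm1, another H2A deubiquitinase, was only in 25RA and Mbd6 only in 1-590. Of 34 Polycomb subunits, 20 were shared and 8 only in 1-590, namely Pcgf6, Kdm2b, Bcor, Rybp and L3mbtl2 of variant PRC1 complexes and Rbbp7, Phf19 and Epop of PRC2, which methylates histone H3. Ring1, which carries the ligase activity, and Cbx2 had a peak only in 25RA, with folds of 2.67 and 2.66. Rnf2 was shared, with 3.17 in 25RA and 3.84 in 1-590.

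The Hox genes, classic Polycomb targets that specify position along the body axis, had more only-25RA promoters than only-1-590 ones. Of 39 Hox promoters, 22 had a peak in both libraries, 7 (17.9%) only in 25RA, 3 (7.69%) only in 1-590 and 7 in neither, beside 42.3%, 5.53%, 12.9% and 39.3% of all promoters. The 7 included Hoxa2 (fold 3.19), Hoxa4 (3.02), Hoxa10 (3.17), Hoxb9 (2.98), Hoxc6 (3.08) and Hoxc12 (2.70), and of those named all but Hoxa2 had a peak in 10RA too. The 3 in 1-590 were Hoxa3 (2.10), Hoxc10 (2.23) and Hoxd11 (2.56), and each had a peak in 10RA as well. In 10RA 31 Hox promoters carried a peak and in vector 16. Local background at Hox promoter peaks was far above the genome's in both libraries, at a median of 6.24 times in 25RA and 9.11 times in 1-590. A peak is called against that local background, and its part in the Hox counts was not tested.

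Across the whole clusters the peaks were about as many in both libraries. The Hoxa cluster held 13 peaks in each, over 4.97 kb in 25RA and 4.36 kb in 1-590. Hoxb held 16 in each, over 6.07 and 6.57 kb, Hoxc 12 and 13, over 4.05 and 4.32 kb, and Hoxd 13 and 17, over 4.95 and 6.62 kb. Relative local background was higher in 1-590 in each cluster, for example 11.5 against 6.58 at Hoxa. Hoxa9, the leukaemia-associated member, was shared, with fold 2.57 in 25RA and 2.29 in 1-590. The vector library, of lower depth, had 2 peaks at Hoxa, 8 at Hoxb, 12 at Hoxc and 11 at Hoxd.

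The strongest promoter peaks found only in 1-590 had summits from 4 to 2186 bases from the start site, the farthest at Mia. Cenpw, a centromere protein gene, led with fold 9.54 at chr10:30076261-30076692, 4 bases from summit to TSS. Cenpw had fold 4.44 in 10RA and no peak in vector, and the nearest 25RA summit was 264257 bases away. Next came the phosphatase gene Mtmr3 (8.65; 4.04 in 10RA and 3.39 in vector) and the deubiquitinase gene Atxn3 (8.39; 4.23 and 5.73). Pet100 and Xab2 share a bidirectional peak at chr8:3671299-3671569, with fold 8.04 and none in 10RA or vector. Airim and Cdca8 (7.88), Rabgap1 and Zbtb26 (7.85), and St13 and Xpnpep3 (7.85) also share peaks, each with a peak in 10RA and vector. The kinase gene Clk1 (7.56), the helicase gene Ddx18 (7.56), Mia (7.95), Eri3 (7.33) and Actb, cytoplasmic actin (6.93), had no promoter peak in the other 3 libraries of the set. The Mia peak met the promoter window only by its edge, and a 25RA summit lay 2164 bases from the Mia start site, outside the window. Il3ra, the interleukin 3 receptor chain whose summit is printed above, had a peak of 1348 bases and fold 6.64.

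The strongest promoter peaks found only in 25RA had summits from 7 to 1926 bases from the start site. Zfp951, a zinc finger gene, led with 6.64 at chr5:105007682-105007977, with none in 10RA or vector and the nearest 1-590 summit 118912 bases away. The histone genes H2ac23 and H4c17 share a peak with fold 6.30, and vector had 7.34 there and 10RA none. Nxph2 (5.95), the actin-binding thymosin gene Tmsb4x (5.93), the membrane glycoprotein gene Cd200 (5.83) and the channel gene Kcnh8 (5.25) had a peak in 10RA and vector as well, so the 1-590 library was the 1 of the 4 without it. At Tmsb4x the vector fold was 13.0 and the 10RA fold 3.38. Psmd14 (5.59), Ccl27a (5.54) and Zfp82 (5.29) had a peak in vector and none in 10RA, whereas Snrpb2 (5.30), of the splicing machinery, had one in 10RA and none in vector. The sulfite oxidase gene Suox (5.42), 7 bases from summit to TSS, Zmym2 (5.09), Zcchc4 (5.07), Frmpd2, Dera (4.95), Klrc1 (4.90) and Smim30 (4.90) had none in the other 3 libraries. At Zmym2 the nearest 1-590 summit lay 2203 bases from the start site, outside the promoter window.

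The strongest shared promoters were largely present in the whole set. In 25RA the leading peaks lay at the bidirectional promoter of Derl2 and Mis12 (13.6; 10.7 in 1-590, 10.2 in 10RA and 9.67 in vector), at the ferritin gene Fth1 (13.5; 5.95, 8.27 and 17.2) and at the isoprenoid synthesis gene Idi1 (12.1; 12.6, 10.4 and 7.68). In 1-590 they lay at the oligosaccharyltransferase gene Stt3a (14.0; 8.30 in 25RA, 6.96 in 10RA and 7.49 in vector) and at Drc3 (13.4; 5.97, 7.65 and 7.69).

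The 10RA and vector libraries, which did not enter the classes, separated them only in part. Over all genes, 41.4% had a promoter peak in 10RA and 40.5% in vector. A 10RA peak was found at 35.5% (32.8 to 38.2) of only-25RA and 36.8% (35.0 to 38.6) of only-1-590 promoters, beside 75.8% of shared promoters and 6.53% of those in neither. A vector peak was found at 23.8% (21.5 to 26.3) of only-25RA and 37.8% (36.1 to 39.6) of only-1-590 promoters. With all lists at equal length these shares were 37.4% and 49.8%, in the same order. The vector gap remained within CpG-rich promoters, 32.4% against 43.7%, and within CpG-poor ones, 148 of 777 against 289 of 1039. The intervals of the 2 classes thus overlapped for 10RA, the other condensation mutant, and lay apart for the vector library, where only-25RA promoters had the lower share. Of the only-25RA genes 641 (53.3%) had no promoter peak in 10RA or vector, 276 had one in 10RA alone, 135 in vector alone and 151 in both. Of the only-1-590 genes these counts were 1228 (43.8%), 515, 545 and 516.

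**Figure D3:**
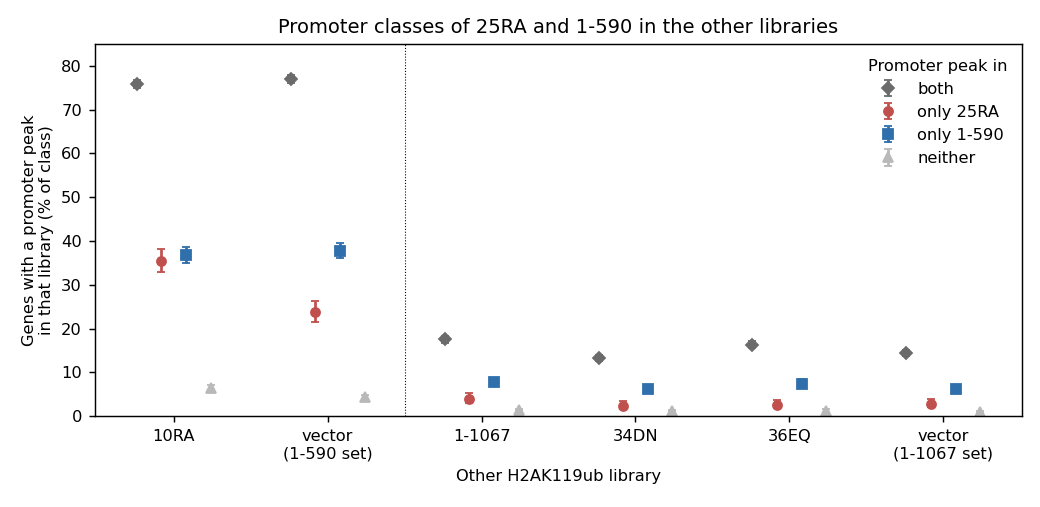
Share of each promoter class (vertical axis, % of its genes, bars give Wilson 95% intervals) with a promoter peak in each other H2AK119ub library; the dotted line separates the 1-590 set from the 1-1067 set. In 10RA the only-25RA and only-1-590 points lie together (35.5% and 36.8%), while in the vector library they lie at 23.8% and 37.8% (37.4% and 49.8% with lists of equal length).

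The 1-1067 set, whose lists hold 5307 to 6310 peaks, had the same order in each library. With ASXL1 (1-1067) 3.99% of only-25RA and 7.77% of only-1-590 promoters had a peak, and with its matched vector 2.91% and 6.28%. The 34DN and 36EQ libraries gave 2.41% and 6.13%, and 2.66% and 7.45%. Over all genes the shares were 9.21% (1-1067), 7.44% (its vector), 6.96% (34DN) and 8.52% (36EQ). Both classes thus lay below all genes in each library. In these lists only 22.8% to 32.7% of peaks had q of 0.05 or less, against 94.1% in 25RA and 96.0% in 1-590. ChIP peaks were too few at these promoters to compare: ASXL1 (1-590) peaks touched 18 only-25RA and 22 only-1-590 promoters, and BAP1 (1-590) peaks touched 2 and 10.

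As intervals, fewer than 1 in 2 peaks of either list met a peak of the other. Of 25RA peaks 14004 (41.4%, 40.8 to 41.9) overlapped a 1-590 peak by 1 base or more, and of 1-590 peaks 13816 (42.5%, 42.0 to 43.1) overlapped a 25RA peak. The lists covered 11.6 Mb and 13.5 Mb and shared 4.88 Mb, 42.0% of the 25RA and 36.2% of the 1-590 bases. Sharing followed location and strength. Of promoter peaks 76.9% of 25RA and 65.0% of 1-590 were shared, and of distal peaks 24.5% and 28.1%. In the weakest quintile of the 25RA list by p 18.3% were shared, and in the strongest quintile 80.5%; in 1-590 the values were 15.9% and 84.4%. Among promoter peaks of the strongest quintile, 93.7% (92.9 to 94.4) of 25RA peaks and 88.7% (87.8 to 89.5) of 1-590 peaks had a counterpart, and among distal peaks 58.1% and 69.0%. The larger share with no counterpart was thus in 1-590 at promoters and in 25RA at distal sites.

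**Figure D4:**
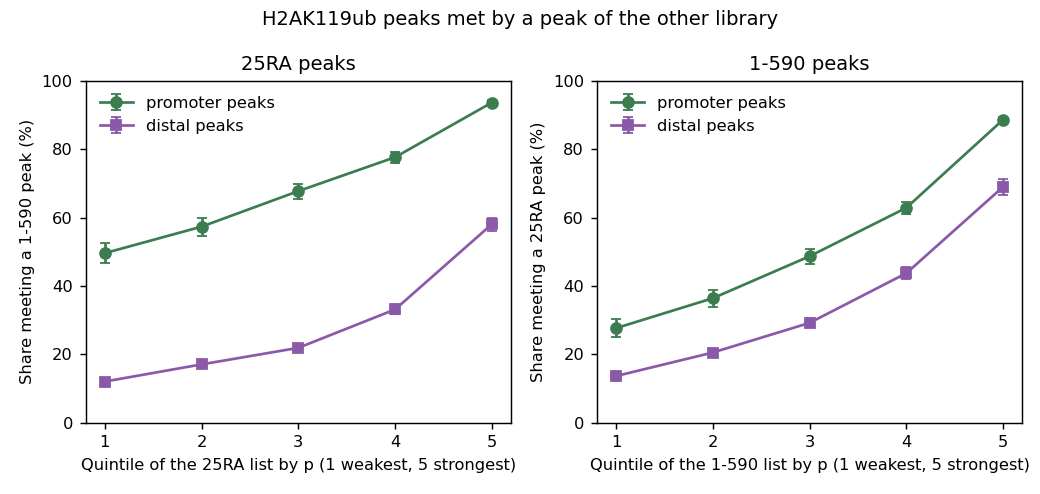
Share of peaks that meet a peak of the other library (vertical axis, %, bars give Wilson 95% intervals) by quintile of the list ranked by p (horizontal axis, 1 weakest and 5 strongest), for promoter and distal peaks of 25RA (left) and 1-590 (right). Promoter peaks of 25RA run from 49.6% to 93.7% and those of 1-590 from 27.7% to 88.7%, and distal peaks lie below promoter peaks in every quintile of both lists.

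H2AK119ub peaks were narrower in 25RA. The median width was 291 bases in 25RA (quartiles 225 and 400) and 344 in 1-590 (254 and 503), against 296 in 10RA and 304 in vector. Peaks over 1 kb numbered 284 in 25RA (0.839%), 845 in 1-590 (2.60%), 207 in 10RA and 140 in vector. The shortest peak, which follows the caller's fragment length, was 189 bases in 25RA and 201 in 1-590. In multiples of the shortest the medians were 1.54 and 1.71. At 13366 sites where 1 peak of each list overlapped only each other, the median width was 372.5 bases in 25RA and 468 in 1-590, and the 1-590 peak was the wider at 68.4% of sites. The median ratio of 25RA to 1-590 width was 0.844, or 0.897 in multiples of the shortest. It was 0.809 at promoters (418 against 549 bases) and 0.897 at distal sites (325 against 368). Summits of such pairs lay a median of 74 bases apart. The 25RA library was the shallower of the pair (0.903 of the background), and the part of depth in the widths was not tested: scaling the lists to equal depth drops peaks and leaves the width of the others as deposited.

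**Figure D5:**
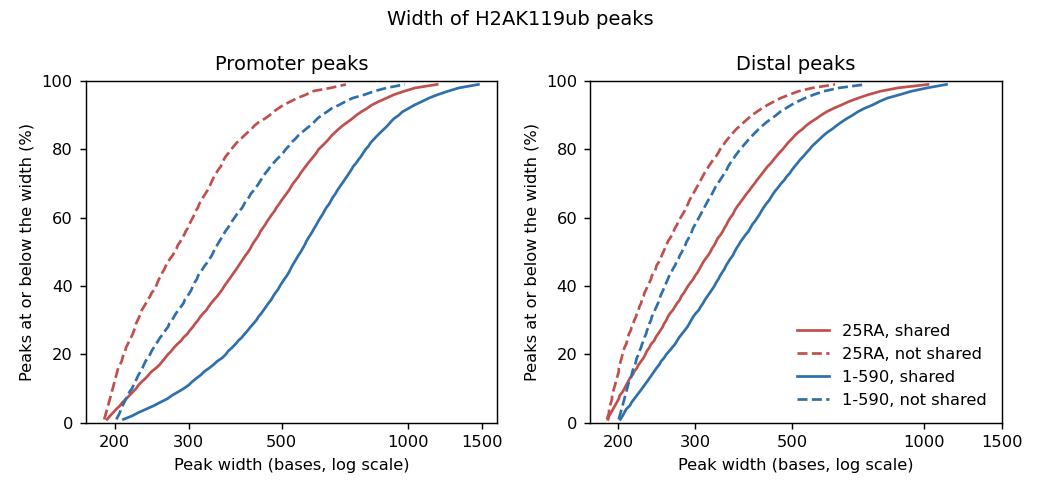
Cumulative share of peaks (vertical axis, %) by width (horizontal axis, bases, log scale) for promoter peaks (left) and distal peaks (right), with shared peaks as solid and unshared peaks as dashed lines. Lines of 1-590 lie to the right of 25RA in each class, and shared peaks are wider than unshared ones in each library.

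The widest shared promoter peaks in 1-590 were at Irf2bpl (2512 bases), Camk2d (2187), Sowahc (2153), the forkhead gene Foxd2 (2118) and Zfyve28 (2081). In 25RA they were at Insm2 (1859), the ubiquitin-conjugating enzyme gene Ube2d3 (1760), the Wnt receptor gene Fzd5 (1702) and Hmga2 (1688). Among unshared peaks, 1-590 had 61 over 1 kb, led by Sh2d5 (1601), an intron of Erg (1507), Pde3b (1452), Rpp25 (1416) and Cish (1405). The 25RA library had 3 over 1 kb, led by an intron of Stox2 (1167), a site that 10RA and vector peaks also met.

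Most peaks of both libraries were distal, with no base in a protein-coding promoter: 22963 in 25RA (67.8%, 67.3 to 68.3) and 19816 in 1-590 (61.0%, 60.5 to 61.5). Of the distal 25RA peaks 2747 had their summit in an exon and 9374 in an intron of a protein-coding gene. The other 10842, called between genes here, had no protein-coding gene at the summit. For distal 1-590 peaks these counts were 2177, 8239 and 9400. The median distance of distal peaks to a protein-coding TSS was 27.4 kb in 25RA and 25.9 kb in 1-590, and 32.2% and 30.4% lay over 50 kb away. Start sites of noncoding genes lay within 2 kb of 16.9% and 18.9%. Unshared distal peaks were short, with median widths of 254 and 280 bases, and CpG-poor, at 0.193 and 0.200 observed over expected, in 501 bases at the summit. Few were found in the rest of the set: 12.2% of unshared distal 25RA peaks met a 10RA peak and 7.18% a vector peak, against 13.9% and 9.34% for 1-590. Shared distal peaks met a 10RA peak in 49.2% and a vector peak in 40.0%, counted on 25RA.

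The 6 strongest unshared distal peaks of 25RA included exons of Cpa3, Lyz2 and Spp1. Cpa3, which encodes mast cell carboxypeptidase, had fold 11.0 at chr3:20269830-20270145, 26.4 kb from the nearest protein-coding TSS. Lyz2, macrophage lysozyme, had 9.51 over 773 bases, and the osteopontin gene Spp1 had 7.89 over 690 bases. All 3 met a vector peak, and Lyz2 also a 10RA peak. Peaks between genes near Gng12 (8.64), Atg7 (8.04) and Sfi1 came with them. In 1-590 the strongest unshared distal peak had fold 14.1 at chr9:3006763-3007303, between genes near the start of the chromosome's assembled sequence. It met peaks of all 4 libraries of the 1-1067 set and all 4 ChIP lists, but none of 10RA, vector or 25RA. An intron of Kdm1a, encoding a histone demethylase, followed with 8.69, and sites near Rpusd4 (8.69), Pdia4 (8.50), Asap2 (7.61) and Pls3 (7.52). The last 3 met no peak of 10RA or vector.

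Some long genes held many peaks of 1 library. Frmd4a held 20 peaks in 25RA and 7 in 1-590, with 16 in 10RA and 10 in vector. Slc9a9 held 17 and 8, with 3 and 4. In the other direction the dystrophin gene Dmd held 10 and 21, with 9 in 10RA and 1 in vector, Gse1 17 and 26, with 16 and 8, and Creb5 7 and 12, with 4 and 5. Fgfr2 and Pde4d held the most peaks without a counterpart in both libraries, with totals of 64 and 60 at Fgfr2 and 37 and 36 at Pde4d. Their annotated spans are 2962 kb and 1506 kb. All these counts take every peak in a gene's annotated span, which may cover other genes, and are not scaled by length. By chromosome, the ratio of 25RA to 1-590 peaks ran from 0.968 on chromosome 4 to 1.13 on chromosome 18 over the autosomes and was 0.976 on X. On X, 25.9% of 25RA peaks were shared, against 38.6% to 45.9% on the autosomes.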

How the data were processed

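H2AK119ub was profiled by CUT&RUN, in which an antibody directs a nuclease to the mark and the released fragments are sequenced. The authors deposited 1 MACS peak list per library (12 lists, 8 of them H2AK119ub). The submitters' processing notes name MACS3 3.0.3, Bowtie2 2.5.4, fastp 0.24.0, Picard and SAMtools, and mm39 as the build. The deposited columns are a score, a fold enrichment at the summit (a ratio of pileup plus 1 to local background plus 1), and -log10 p-values and q-values made within each library. These values served to rank and filter the peaks of a list; where libraries are named side by side, the folds are each library's own and no difference is drawn from them. Per the labels, spike-in reads of E. coli served for normalization; how they entered the deposited peaks, the control library and any pooling are not given in the sources used here. Fragment pileups and backgrounds recovered from fold and p were whole (within 0.001 in -log10 p) for at least 99.9969% of the peaks in each list of the 1-590 set, and gave the depths in the report.

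Intervals overlap by 1 base or more. Genes are from GENCODE vM39 on GRCm39, the assembly of mm39, with 1 gene per symbol. Python 3.11.15, pandas 2.3.3, SciPy 1.17.1, pysam 0.24.0 and bedtools 2.31.1 were used, and 6 of 6 functions returned known answers on simulated data. Groups follow the sample titles. Named genes follow a rule. It takes the promoters with the 12 largest folds per direction and with the 8 largest shared folds per library. Separately it takes, per direction, the 8 largest folds among all promoters with no peak in any other library of the set. It adds the 6 strongest distal and 6 widest peaks per class and the 6 genes with the most unshared peaks. Members of 35 gene lists, and Bap1, Asxl1, Asxl2, Cdkn2a and the Hox genes, complete it. Some genes under this rule are not named. Lists were written from general knowledge or by symbol pattern; Vpreb1 and Ddx58 were not found under those symbols. The comparison, the members and the lists were chosen with earlier results of these data known. Alternatives covered the q threshold, list length, depth, sequences used, overlap, merging, promoter width, promoter rule and TSS.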

Additional observations from a re-analysis of the deposited data

How the results depend on the processing

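Each condition had 1 library, so direction and size have no replicate check, and intervals cover counting error only. Of 87 values recomputed under an alternative, 51 stayed within counting error (counts within 1.5 times) and 36 did not; the order of 25RA and 1-590 in promoter counts, width and distal share was the same in each. No paired analysis was possible because each condition has 1 library and no test was made. With q of 0.05 or less, 42.5% of 25RA peaks met a 1-590 peak, median widths were 296 (25RA) and 351 (1-590) bases, distal shares 66.7% and 59.9%, and vector peaks lay at 21.2% of only-25RA and 34.3% of only-1-590 promoters. With lists of equal length, 42.5% of 25RA and 41.9% of 1-590 peaks were shared, the 25RA width was 294 bases and its distal share 67.0%, and the vector shares were 37.4% and 49.8%. With depth scaled to the shallowest list the vector shares were 34.8% and 47.5%. With an overlap of 50% of the shorter peak, 38.8% of 25RA and 40.0% of 1-590 peaks were shared, and with the summit inside the other peak 37.0% and 36.0%. With peaks within 500 bases merged, widths were 294 and 350 bases and distal shares 68.4% and 61.8%. With promoters of 1 kb, 10RA peaks lay at 31.5% of only-25RA and 34.2% of only-1-590 promoters and distal shares were 72.7% and 65.6%; with 5 kb, these were 39.8% and 41.8%, and 61.6% and 55.4%, with a vector share of 40.1% for only-1-590. With start sites of every gene type, distal shares were 56.3% and 49.5%. With -log10 q of at least 5, chosen after seeing the data, 95 genes were only in 25RA and 992 only in 1-590, a ratio of 10.4 against 2.33.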

Other observations

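Other gene families were divided between the classes as follows, beside 42.3%, 5.53% and 12.9% of all promoters in both libraries, only in 25RA and only in 1-590. Of 75 core and linker histone genes, which lie in clusters and often share a peak, 42 were in both, 6 only in 25RA and 17 only in 1-590. Of 383 zinc finger genes named Zfp, 199 were in both, 25 only in 25RA and 42 only in 1-590, and of 45 forkhead genes 27, 2 and 7. Ubiquitin-conjugating enzymes gave 24, 1 and 2 of 31, and cell cycle inhibitors and tumour suppressors gave 10, 1 (Wt1) and 2 (Rb1 and Bcor) of 14. Clustered protocadherins, adhesion proteins of neurons, gave 4, 4 and 3 of 56.

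Families of secreted signals and barrier proteins are mostly CpG-poor. Over all CpG-poor promoters 17.5% had a peak in both libraries, 6.83% only in 25RA and 9.14% only in 1-590. Chemokines and chemokine receptors gave 7, 5 and 8 of 48, and interleukins and interleukin receptors 16, 5 and 11 of 65. Keratins gave 1, 3 and 5 of 50, and defensins 3, 0 and 1 of 72.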
